A study of Mus musculus with 40 samples.

Results

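The histone deacetylase genes were followed across 40 arrays of mouse B16F10 melanoma. They were chosen by family and not by a rule on measured values, though with earlier results of these data known. Included were all probe sets that name 1 of 10 listed genes alone in GEO's annotation of the array. A probe set is a group of short probes whose signals are combined to 1 value. Of the 10 genes, 8 had such a probe set, out of 17097 genes named alone. Together they held 11 of the 45141 probe sets: 1 each for Hdac1, Hdac5, Hdac6, Hdac8 and Hdac11, and 2 each for Hdac2, Hdac7 and Hdac9. Hdac3 and Hdac4 are not analysed here.

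The study asked what 2 drugs that act on chromatin do to gene expression in this melanoma. OTX015 blocks the BET proteins, which read acetylated histones, and guadecitabine is an inhibitor of DNA methylation that is built into DNA. The 6 groups were B16F10 cells in culture without OTX015 (4 arrays) and with it (4), tumours of the OTX015 experiment from untreated mice (11) and from mice given the drug by mouth (10), and tumours of the guadecitabine experiment from untreated mice (5) and from mice injected into the abdominal cavity (6). All tumours grew from B16F10 cells placed under the skin of 8-week-old C57black6J mice. Every group thus comes from 1 transplantable melanoma line, and no other genotype was used. The labels name no dose, no duration, no vehicle and no sex. They also leave unsaid if the replicates of a group were independent cultures or mice, so the p-values below measure the spread between these samples, which may be technical. No control array served in more than 1 drug comparison.

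Histone deacetylases remove acetyl groups from lysines in histones and other proteins, the reverse of what histone acetyltransferases do. Class I enzymes such as Hdac1 and Hdac2 work in the nucleus as the catalytic core of corepressor complexes (NuRD, SIN3, CoREST, MiDAC), and Hdac8 is a class I enzyme that acts outside these complexes, with the cohesin subunit Smc3 as a known substrate. Class IIa enzymes (Hdac5, Hdac7, Hdac9) have little catalytic activity of their own, bind MEF2 transcription factors and leave the nucleus when kinases phosphorylate them and 14-3-3 proteins bind. Hdac6, of class IIb, is mainly a cytoplasmic deacetylase of alpha-tubulin, and Hdac11 is the single class IV member, known to remove long fatty acyl groups from lysines. BET proteins bind acetyl marks on histones, which class I enzymes such as Hdac1 and Hdac2 erase.

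Values are log2 intensities, so that a difference of 1 is a change of 2-fold. A change was called where limma's test, fitted on all 45141 probe sets, gave a Benjamini-Hochberg adjusted p under 0.05. The background level was taken from 83 probe sets of odorant and pheromone receptors, genes of the nose that are silent elsewhere as a rule: the 95th percentile of their means was 4.46 on the deposited values and 4.47 with all 40 arrays quantile-normalized. By their mean over the 40 normalized arrays, 7 of the 11 histone deacetylase probe sets lay above it and 4 below: that of Hdac8, both of Hdac9 and the dimmer one of Hdac2 (1439704_PM_at). Hdac8 lay above it on 2 of 40 arrays, Hdac11 on 30 and the dimmer probe set of Hdac7 (1420812_PM_at) on 39. A value below this level says that the signal was not above background, not that the RNA was absent. RefSeq lists 1 pseudogene of Hdac1, whose RNA the Hdac1 probe set may also bind, and this was not tested.

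Some properties of the arrays bear on these values. The deposited values of the 10 OTX015-treated tumours lay lower throughout (array means 4.35 to 4.39, against 4.55 to 4.64 for the other arrays), so the arrays of this comparison, and of every comparison across experiments, were brought to 1 distribution by quantile normalization first. In bulk samples, fewer cells of a type and less RNA per cell cannot be told apart. All 9 melanocyte markers lay above background in every group. The mean over 12 macrophage markers was at most 3.63 in cultured cells, 5.53 to 7.45 in untreated and 4.44 to 6.15 in treated tumours of the OTX015 experiment, where 8 of the 12 fell and none rose, and 5.31 to 5.88 without and 4.29 to 5.82 with guadecitabine. The 3 nuclear-retained RNAs used as a sign of RNA quality (Malat1, Neat1, Kcnq1ot1) were all called higher in OTX015-treated cells, with means of 5.89 to 6.09 without and 7.07 to 7.63 with the drug. The part of these shifts in the results below was not tested.

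Set side by side on 1 scale (all 40 arrays quantile-normalized together), most members differed little between neighbouring groups. Levels are compared here only between groups of 1 probe set, since probe sets differ in how well they bind. Hdac1 was highest in OTX015-treated cells at 9.03 ± 0.077 (SD, n = 4), followed by treated (8.75 ± 0.13, n = 10) and untreated (8.66 ± 0.10, n = 11) tumours of the OTX015 experiment, untreated cells (8.56 ± 0.19, n = 4), and untreated (8.52 ± 0.17, n = 5) and treated (8.45 ± 0.23, n = 6) tumours of the guadecitabine experiment. Only the step below treated cells was larger than the SDs of the 2 neighbouring groups added together, the measure of a gap used here. The brighter probe set of Hdac2 (1449080_PM_at) stood at 8.54 ± 0.20 in treated and 8.18 ± 0.12 in untreated cells, and at 7.75 ± 0.28, 7.73 ± 0.20, 7.54 ± 0.23 and 7.39 ± 0.41 in the tumours, untreated before treated in each experiment. Here both cell groups stood apart from their next neighbour and the 4 tumour groups did not. Hdac8 showed the widest step: 4.46 ± 0.30 in untreated cells against 3.49 ± 0.30 in treated cells, with all tumour groups between 2.92 and 3.11. All these Hdac8 means lay below the background level on this scale, 4.47, that of untreated cells only just.

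For the other members no neighbours in this order differed by more than their SDs added together. Hdac6 ran from 5.93 ± 0.11 in untreated cells through 6.06 ± 0.19 and 6.43 ± 0.19 in tumours without and with OTX015 and 6.55 ± 0.16 in treated cells to 6.59 ± 0.21 and 6.65 ± 0.30 in tumours without and with guadecitabine. Its largest step between neighbours, 0.37, was the one between untreated and treated tumours of the OTX015 experiment, but the order as a whole was a slope rather than a split. Hdac5 lay between 5.83 and 6.35, Hdac11 between 4.23 in treated cells and 4.98 in untreated cells, and the 2 probe sets of Hdac7 between 4.66 and 5.08. Both probe sets of Hdac9 stayed between 2.43 and 2.83, below background in every group.

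**Figure D1:**
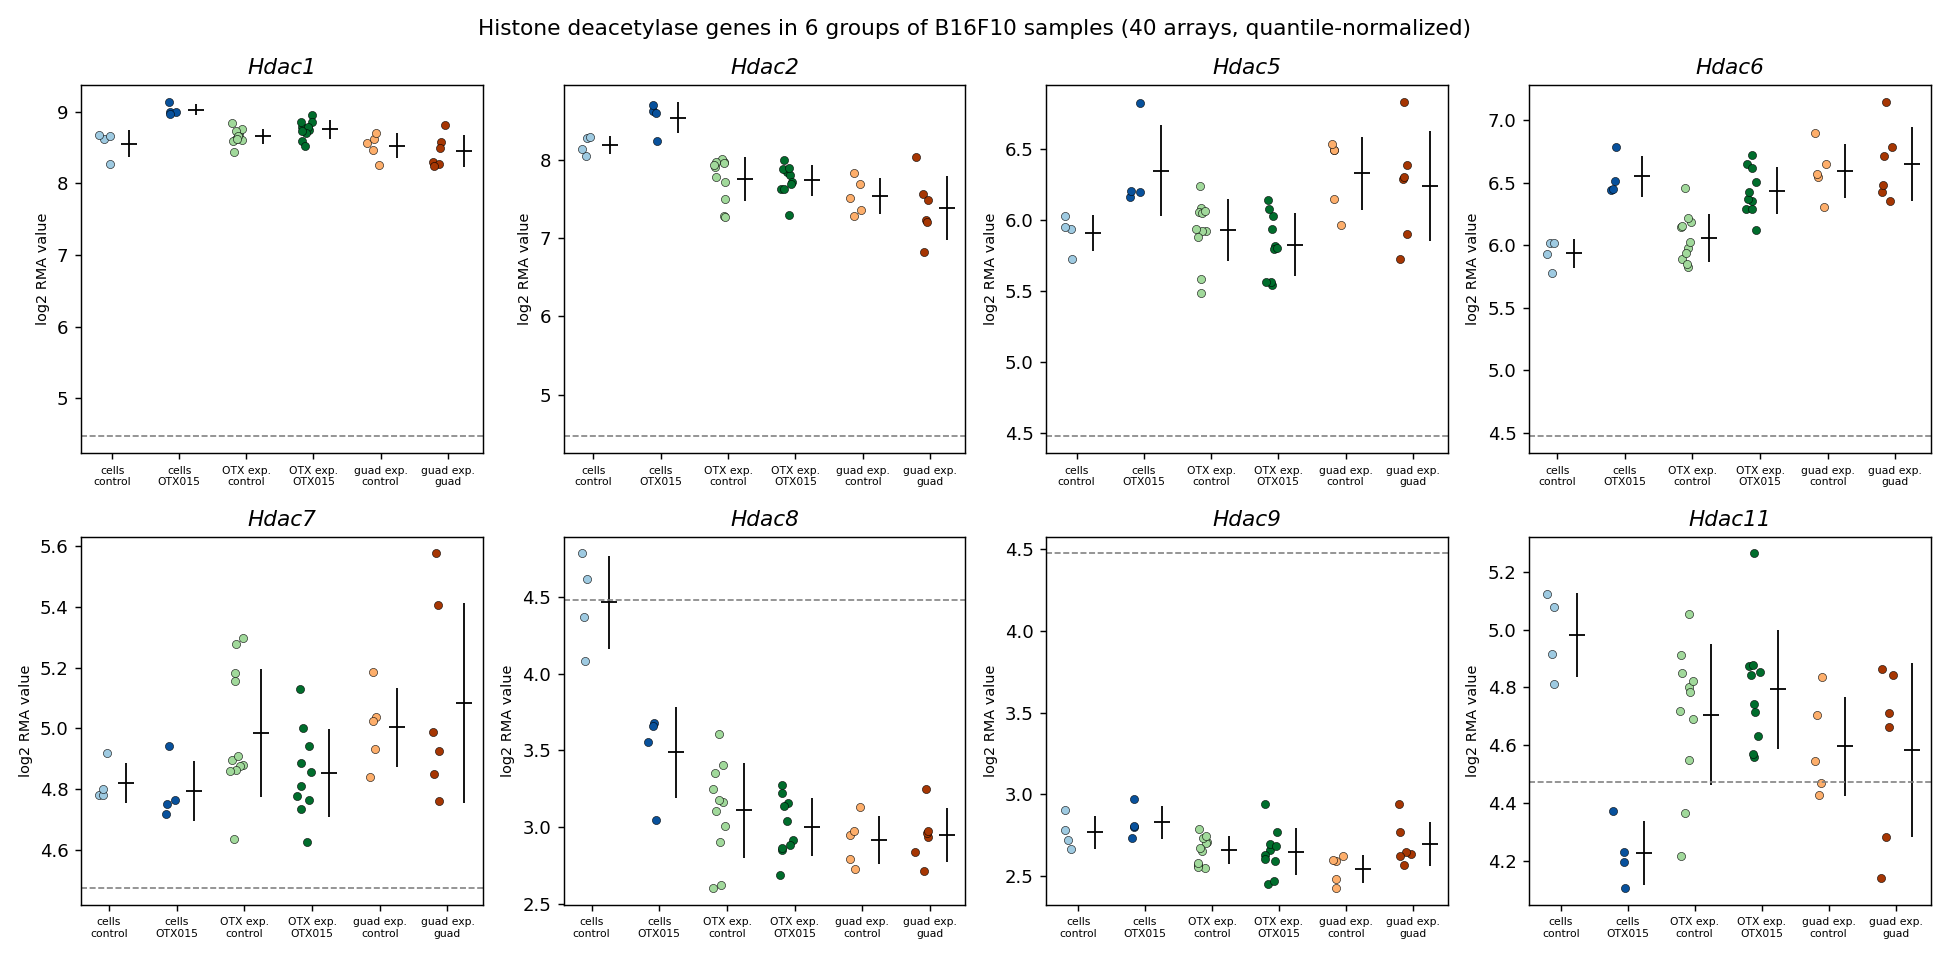
Log2 level of the 8 measured histone deacetylase genes (panels), each by its brightest probe set, on the 40 arrays after quantile normalization of all arrays together (vertical axis), by group (horizontal axis); each point is 1 array and the bars beside them are the group mean and SD, with the background level as a dashed line. Hdac8 and Hdac11 sit lower in OTX015-treated than in untreated cells with no overlap, Hdac1 and Hdac6 sit higher, and Hdac9 stays below background in every group.

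In cultured B16F10 cells OTX015 moved histone deacetylases in both directions: Hdac1 and Hdac6 rose, and Hdac8 and Hdac11 fell. In all, 4 of 11 probe sets were called, against 29.1% of all probe sets, 2 of them higher (13.7% of all) and 2 lower (15.3% of all). A share this near to the background is no finding about the family as a whole, and what follows is about single genes. The median change over the 11 probe sets was 0.056 and that over all probe sets 0.0092.

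Among the class I enzymes, Hdac1 read 8.86, 8.56, 8.94 and 8.89 in the 4 untreated samples and 9.32, 9.19, 9.21 and 9.17 in the 4 treated ones. All treated values lay above all untreated ones. The difference was 0.41 ± 0.087 (SE), or 1.33-fold, with an adjusted p of 0.0042 by limma, and it was no longer called when all 6 groups shared 1 estimate of the spread (adjusted p = 0.0843 by limma). Hdac2, the close partner of Hdac1 in the same complexes, read 8.55, 8.58, 8.33 and 8.41 without and 8.46, 8.84, 8.92 and 8.82 with OTX015 on its brighter probe set. One treated sample, replicate 1, lay within the untreated range. The difference of 0.29, with a 95% interval of 0.061 to 0.52, was not called (limma, adjusted p = 0.0597), and it was called at 0.39 without that sample (limma, adjusted p = 0.00345).

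Hdac8 fell. It read 4.40, 4.95, 4.68 and 4.08 in untreated samples and 3.04, 3.68, 3.63 and 3.52 in treated ones, so the groups did not overlap and every treated value lay below background. The log2 difference was -1.06 ± 0.19 (SE), with an adjusted p of 0.00126 by limma. The untreated mean of 4.53 is itself close to background and 2 untreated samples lay below it, so no exact fold can be read from this: against the background level of 4.45 on these arrays the fall was at least 1.05-fold. Under the 16 alternative settings that gave Hdac8 a value the call held each time, with differences of -1.21 to -0.89.

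Of the class IIa enzymes none was called. Hdac5 read 6.29, 6.36, 5.95 and 6.35 without and 7.13, 6.43, 6.50 and 6.53 with OTX015. The groups did not overlap, but treated replicate 1 stood well above the other treated samples. The difference of 0.41 had a 95% interval of 0.072 to 0.75 and an adjusted p of 0.0708 by limma, and it came to 0.25 without that sample. The 2 probe sets of Hdac7 differed by 0.053 and -0.099 and those of Hdac9 by 0.066 and -0.044.

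Hdac6, the tubulin deacetylase, rose. It read 6.37, 6.43, 6.01 and 6.24 in untreated and 7.09, 6.81, 6.75 and 6.78 in treated samples, again with no overlap. The difference was 0.60 ± 0.11 (SE), 1.51-fold, with an adjusted p of 0.00132 by limma, and 0.52 without treated replicate 1, the highest sample. In these cells 11 of the 12 macrophage markers lay at or below background, and the 3 nuclear-retained RNAs were called higher with OTX015. The part of cell makeup and of RNA quality in the rise of Hdac6 was not tested.

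The class IV enzyme Hdac11 had the smallest adjusted p of the family in cells. It read 5.07, 5.38, 5.21 and 4.93 without and 4.37, 4.25, 4.19 and 4.09 with OTX015. Every treated sample lay below background and every untreated one above it. The log2 difference was -0.93 ± 0.10 (SE), with an adjusted p of 4.01e-05 by limma, and the call held in all 17 alternative settings. With the treated samples set at the background level, the fall was at least 1.62-fold.

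The stretches just before the genes of 2 members called in cells are shown so that their letters can be read beside these changes, on the gene's own strand. Of the 8 measured genes, 7 matched an entry in the table of mouse promoters from RefSeq (assembly GRCm38.p6), and Hdac1 is named only. The start that the table uses lies inside RefSeq's span of the gene for Hdac6, Hdac8 and Hdac11, each with 1 entry, so of the table's 250 bases before it only those before the span are printed: 92 for Hdac6 and 105 for Hdac11. For Hdac8 only 27 remain, and they are not printed. Capitals mark the letters of 5 motifs searched on both strands: the E-box CACGTG, the GC box GGGCGG, the CCAAT box CCAAT, the TATA box TATAAA and the ETS site CCGGAA.
Hdac6, chrX:7948048-7948139, minus strand: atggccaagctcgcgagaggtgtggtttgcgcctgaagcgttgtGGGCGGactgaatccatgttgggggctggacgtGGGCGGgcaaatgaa
Hdac11, chr6:91156565-91156669, plus strand: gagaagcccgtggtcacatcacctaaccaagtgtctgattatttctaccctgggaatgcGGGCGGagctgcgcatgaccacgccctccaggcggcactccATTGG
The Hdac6 stretch holds 7 CpG dinucleotides and 60.9% G or C, with 2 GC boxes and none of the other motifs. That of Hdac11 holds 6 CpG and 59% G or C, with 1 GC box, 1 CCAAT box (read on the other strand) and none of the other motifs. Of the first 92 bases of 32851 mouse promoter entries, 9.54% hold a GC box, 12.4% a CCAAT box, 4.88% a TATA box, 2.91% an ETS site and 1.57% an E-box, and of the first 105 bases 11.1%, 14.3%, 5.44%, 3.43% and 1.85%. The first bases are counted from 250 before the start that the table uses, as they are for the 2 printed stretches. For other genes they need not adjoin the gene's span. The motif matches describe the letters and show no binding.

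In tumours Hdac6 was the 1 measured member called under OTX015, and it rose. It read 5.68, 5.88 and 6.30 (lowest, median and highest) in the 11 untreated tumours and 5.97, 6.24 and 6.56 in the 10 treated ones. The ranges overlap, yet all 10 treated tumours lay above the untreated mean and 4 lay above every untreated tumour. The difference was 0.37 ± 0.079 (SE), 1.29-fold, with an adjusted p of 0.0024 by limma. This is 1 of 11 probe sets, against 16.7% of all probe sets called in this comparison (8.6% higher, 8.07% lower), and the median over the 11 was -0.014 beside 0.0011 over all. On the deposited values, without the normalization, Hdac6 differed by 0.14 and was not called (limma, adjusted p = 0.217), and 7 other probe sets of the family were then called lower.

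For the other members the ranges of treated and untreated tumours overlapped. Hdac1 ran from 8.33 to 8.76 (median 8.55) without and from 8.42 to 8.86 (median 8.67) with OTX015, a difference of 0.10 with a 95% interval of -0.013 to 0.21, and of -0.13 on the deposited values (limma, adjusted p = 0.245). Hdac2 ran from 7.12 to 7.89 (median 7.79) without and from 7.15 to 7.87 (median 7.63) with the drug on its brighter probe set. Its difference was -0.017, with an interval of -0.23 to 0.20.

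Hdac8, below background in all tumours, differed by -0.10 with an interval of -0.32 to 0.12. Hdac11 ran from 4.16 to 4.94 (median 4.69) without and from 4.48 to 5.14 (median 4.70) with OTX015, a difference of 0.082 with an interval of -0.10 to 0.27. On the deposited values this difference was -0.20 and was called (limma, adjusted p = 0.0404), and it was -0.055 without the 3 arrays of lowest spread (limma, adjusted p = 0.599), so the direction for Hdac11 in tumours depends on the scaling and on those arrays. For the class IIa enzymes, Hdac5 differed by -0.10 (interval -0.29 to 0.086), Hdac7 by -0.062 and -0.12, and Hdac9 by -0.010 and -0.014. Such intervals bound the changes and do not show that the groups are equal.

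A difference between the effect of OTX015 in tumours and that in culture was called for Hdac11, Hdac8, Hdac1 and Hdac5. Tested as the effect in tumours minus that in cells, on arrays normalized together, 4 of 11 probe sets were called, against 25.9% of all (2 higher against 13.4%, 2 lower against 12.6%). For Hdac8 the effect was higher in tumours by 0.85 ± 0.21 (SE; limma, adjusted p = 0.00275), and for Hdac11 by 0.84 ± 0.17 (SE; limma, adjusted p = 2.82e-04). Both genes fell in culture and were not called in tumours. Hdac8 was below background in all tumours without the drug, so a fall there could not have been measured and its difference of effects does not compare responses. The mean of Hdac11 in untreated tumours, 4.66, was close to the background level of these arrays, 4.47. A fall there as large as in culture would have ended below background. The difference of effects for Hdac11 is therefore no full comparison of responses either. For Hdac1 the difference of effects was -0.37 (limma, adjusted p = 0.00789) and for Hdac5 -0.55 (limma, adjusted p = 0.0268). Centring each array on its median in place of quantile normalization ended both of these calls, with adjusted p-values of 0.317 and 0.0842 by limma. The effect on Hdac6, called higher in each setting, differed by -0.24 with a 95% interval of -0.54 to 0.056 (limma, adjusted p = 0.243). Nuclear-retained RNAs moved with this contrast too, with all 3 called lower, and their part in it was not tested.

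**Figure D2:**
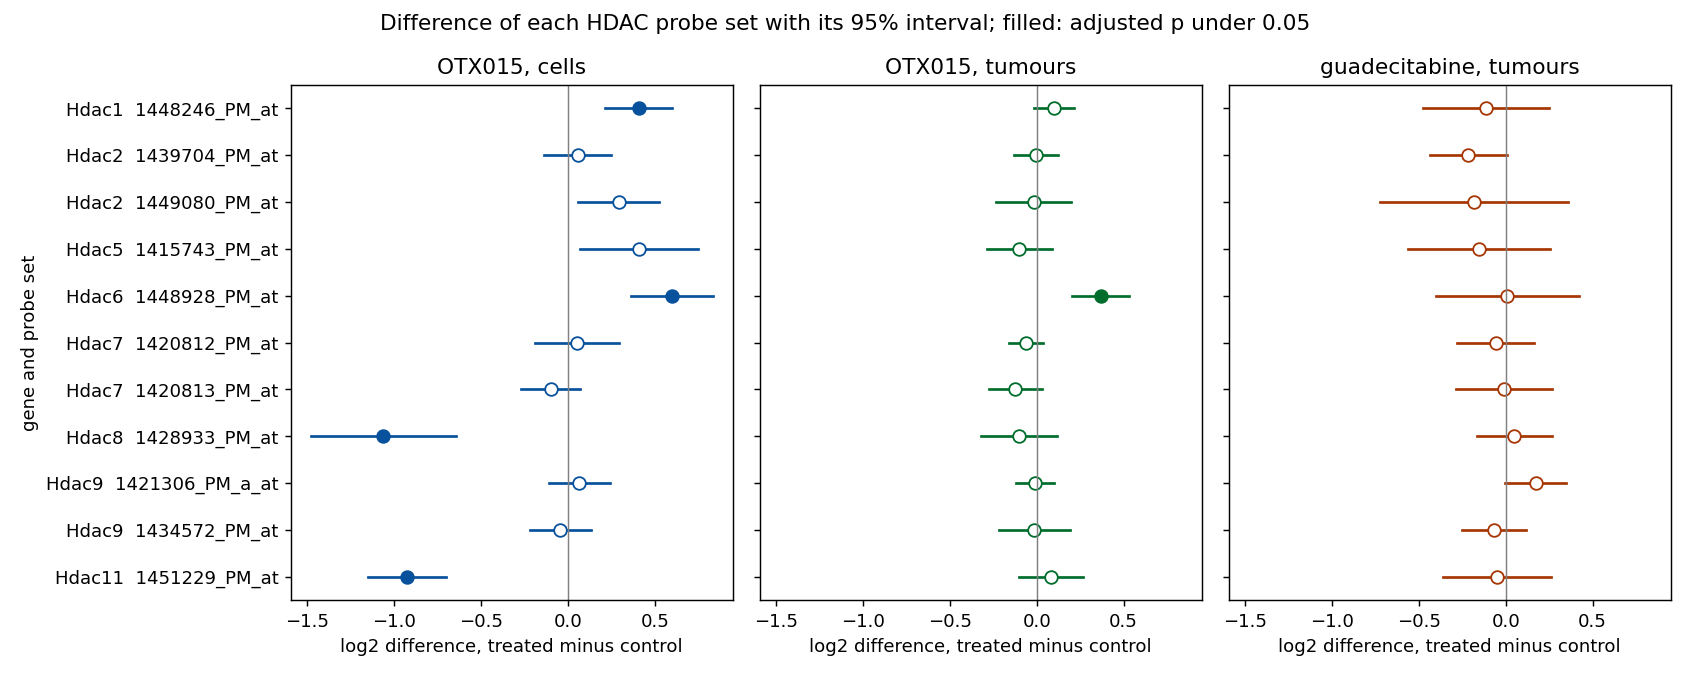
Log2 difference, treated minus untreated, with its 95% interval (horizontal axis) for each histone deacetylase probe set (vertical axis) under OTX015 in cells, OTX015 in tumours and guadecitabine in tumours; filled points were called by limma at an adjusted p under 0.05. Hdac6 is called higher in cells (0.60) and in tumours (0.37) under OTX015, Hdac8 (-1.06) and Hdac11 (-0.93) are called lower in cells, and nothing is called under guadecitabine.

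Guadecitabine gave no call for any histone deacetylase. With limma 0 of 11 probe sets passed, as did 0% of all 45141 probe sets, and at an unadjusted p under 0.05 there were 0 of the 11 and 3079 of all. The smallest adjusted p over all probe sets was 0.120. Intervals were wide: for Hdac1 the difference was -0.11 (95% interval -0.48 to 0.25), for the brighter Hdac2 probe set -0.18 (-0.72 to 0.36), for Hdac6 0.0099 (-0.40 to 0.42) and for Hdac11 -0.050 (-0.36 to 0.26). Changes of the size seen for Hdac6 under OTX015 in tumours therefore lie inside the interval for Hdac6 here.

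On the deposited values the treated tumours of this experiment spread more widely than their controls for Hdac1, Hdac2 and Hdac6. Hdac2, on its brighter probe set, read 7.44, 7.52, 7.31, 7.79 and 7.86 in the 5 untreated tumours and 6.58, 7.47 and 8.23 (lowest, median and highest) in the 6 treated ones. Hdac1 read 8.32, 8.49, 8.56, 8.68 and 8.77 untreated and 7.99, 8.49 and 8.98 treated. Hdac6 read 7.0, 6.69, 6.62, 6.70 and 6.31 untreated and 6.27, 6.57 and 7.32 treated. In all 3 genes the treated range enclosed the untreated range on these values. With all 40 arrays normalized together it no longer did so for Hdac6 (lowest treated 6.35, lowest untreated 6.30), and the SD of Hdac1 in treated tumours was 0.23 in place of 0.36. The nuclear-retained RNAs spread too, with means of 5.23 to 8.56 in treated and 6.64 to 8.37 in untreated tumours and a list median of -1.03, none called. Treated replicate 2 had the lowest of these means and the highest Hdac1 and Hdac2, and their part in this spread was not tested. The largest differences relative to their errors were those of dim probe sets: -0.21 for Hdac2 (1439704_PM_at; limma, unadjusted p = 0.0557, adjusted p = 0.725), lower than the untreated mean in 6 of 6 tumours, and 0.17 for Hdac9 (1421306_PM_a_at; limma, unadjusted p = 0.0538, adjusted p = 0.725), above the untreated mean in 6 of 6.

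Tested against each other, each drug against its own controls, no difference between the effects of OTX015 and guadecitabine in tumours was called for any member. Of all probe sets 4.59% were called (2.4% higher, 2.19% lower), of the 11 members 0 by limma, and none had an unadjusted p under 0.05, beside 8700 of all. The difference of effects for Hdac6 was 0.31 with a 95% interval of -0.0079 to 0.63 (limma, adjusted p = 0.273), an interval that holds 0.

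Between untreated tumours and untreated cells, the mean of both tumour control groups served as the tumour level, and 5 of 11 probe sets were called, against 36.5% of all (1 higher against 17.3%, 4 lower against 19.2%). These controls also serve in the drug comparisons, so the values are given beside those and not as support for them. Hdac8 differed by -1.47 on the log2 scale (limma, adjusted p = 3.29e-07), with group means of 4.53 in cells and 3.16 and 2.96 in tumours. All 3 means lay below the background level of these arrays, 4.59, so no fold is given. Hdac2 differed by -0.54 on its brighter probe set (limma, adjusted p = 0.00306) and Hdac11 by -0.33 (limma, adjusted p = 0.0315). The dim Hdac9 probe set 1421306_PM_a_at differed by -0.17 (limma, adjusted p = 0.027). Hdac6 was higher by 0.39 (limma, adjusted p = 0.00508), with means of 6.0 in cells, 6.13 in untreated tumours of the OTX015 experiment and 6.66 in those of the guadecitabine experiment, so most of the difference came from the latter. With median centring it was -0.016 (limma, adjusted p = 0.942), so its direction depends on the scaling. Macrophage markers, 12 of 12 of them, were called higher in tumours, as were 2 of the 3 nuclear-retained RNAs (list median 0.88), whose mean was 5.97 in cells and 5.43 and 7.87 in the untreated tumours of the OTX015 and guadecitabine experiments. Their part in these differences was not tested.

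Members varied together to different degrees from tumour to tumour. Over the 32 tumour arrays, after subtracting each group's mean, the brighter Hdac2 probe set and Hdac8 had a Spearman correlation of 0.72. Hdac8 was below background on all these arrays. The correlation was 0.66 for Hdac1 and Hdac2, 0.48 for Hdac5 and Hdac6, and -0.48 for Hdac1 and Hdac7. These points share their array, and with it RNA quality, cell makeup and the spread of the array, so the correlations are given as a description only. Of 8931 candidate genes above background, those most like Hdac2 were Kti12 (0.91), Ddx21 (0.90) and Sephs2 (0.89), and those most like Hdac1 were Lactb (0.83), Pds5b (0.80) and Pls3 (0.80). Hdac5 was closest to Gramd1a (0.81), Nxf1 (0.79) and Rhbdf1 (0.76), and Hdac6, with lower values throughout, to Tmbim6 (0.69), Zfp598 (0.69) and Rhbdf1 (0.67). Hdac7 was closest to the predicted gene Gm20324 (0.80), Vwa3a (0.77) and Aopep (0.72). Hdac11 was closest to Sik2 (0.77), a kinase of class IIa deacetylases, Cyth3 (0.77) and Ocrl (0.75). The dim Hdac8 was closest to Cenph (0.83), Pgam5 (0.81) and Prkar2b (0.80), and the dim Hdac9 to Pelo (0.63), Aldh7a1 (0.62) and Copg1 (0.60).

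Around these enzymes, 72 measured genes of 10 lists of partners, opposing enzymes and regulators were followed, each by its brightest probe set. In OTX015-treated cells 16 were called higher and 15 lower, in tumours 8 higher and 3 lower under OTX015, and none either way under guadecitabine. The calls over all probe sets stand at 29.1%, 16.7% and 0%. These shares include dim and unnamed probe sets, whereas the lists take the brightest of each gene, so no excess is read. The lists were assembled from general knowledge with earlier results of these data known, and are described by count and median only.

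In cells, genes of 5 corepressor complexes were called, in both directions for NuRD and SIN3 and lower for CoREST, MiDAC and NCoR/SMRT. For MiDAC and NCoR/SMRT this was 1 gene each, and 29.1% of all probe sets were called, so no direction of a complex is read. NuRD, SIN3, CoREST and MiDAC carry Hdac1 and Hdac2, and NCoR/SMRT carries Hdac3. Of 11 NuRD genes 2 rose and 3 fell, with a median of -0.011: the subunits Mta3 (-2.45 ± 0.085, SE) and Mta1 (-0.95 ± 0.14) and the methyl-DNA reader Mbd2 (-0.50 ± 0.081) fell, and Gatad2a (0.73 ± 0.11) rose. Of 12 SIN3 genes 6 rose and 1 fell (median 0.33), among them Sap130 (1.53 ± 0.13), Sap30l (0.70 ± 0.11) and the histone-mark reader Ing1 (0.64 ± 0.068), with Sap30 falling (-0.71 ± 0.090). Of 6 CoREST genes none rose and 3 fell (median -0.20): Rcor3 (-0.77 ± 0.099), Phf21a (-0.55 ± 0.11) and Rcor2 (-0.23 ± 0.072), the last called in 7 of 17 alternative settings. The NCoR/SMRT subunit Tbl1xr1 fell (-0.85 ± 0.10; 1 of 3 genes called) and so did the MiDAC subunit Dnttip1 (-0.37 ± 0.058; 1 of 2). All adjusted p-values of the genes named here were at most 0.0354 by limma, and with all 6 groups in 1 fit Phf21a and Dnttip1 were no longer called (limma, adjusted p = 0.124 and 0.106). The nuclear-retained RNAs rose in the same samples, and their part in these changes was not tested.

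Other deacetylases also moved in cells, whereas only 1 of the 8 measured enzymes that write the mark was called. All 5 measured sirtuins, the NAD-dependent deacetylases, were called, in both directions: Sirt1 (2.06 ± 0.12, SE) and Sirt7 (0.48 ± 0.093), both nuclear, rose, while Sirt3 (-1.50 ± 0.13) and Sirt5 (-1.24 ± 0.061), both mitochondrial, fell, as did the mitochondrial Sirt4 (-0.31 ± 0.087), named after its value was seen. Their median was -0.31. The mean of Sirt3 in treated samples, 4.27, lay below the background level of 4.45 on these arrays, so no exact fold can be read for it. Of 8 histone acetyltransferases only Hat1 was called (0.21 ± 0.059), with a median of 0.15 over the list, and it was not called with all 6 groups in 1 fit (limma, adjusted p = 0.783) or without untreated replicate 1 (limma, adjusted p = 0.0528). Of 4 MEF2 factors, the DNA-binding partners of class IIa enzymes, Mef2c (-1.11 ± 0.16) and Mef2d (-0.64 ± 0.13) fell. Of 14 kinases that act on class IIa enzymes or upstream of such kinases 3 rose and 1 fell, with Sik2 (1.27 ± 0.095) and Camk2d (1.07 ± 0.11) the largest rises and Camk1 (-1.34 ± 0.12) the fall, and of 7 genes of 14-3-3 proteins Ywhag (0.53 ± 0.12) and Ywhah (0.45 ± 0.059) rose.

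Under OTX015 in tumours the calls among partners were fewer and smaller. The sirtuin Sirt5 rose by 0.58 ± 0.076 (SE), the acetyltransferases Kat2a and Kat7 by 0.41 ± 0.087 and 0.25 ± 0.054, the MiDAC subunit Mideas by 0.40 ± 0.096, and Mef2d by 0.37 ± 0.099. The kinases Sik2 (0.40 ± 0.11) and Mark3 (0.22 ± 0.042) and the SIN3 subunit Brms1 (0.25 ± 0.054) rose as well, but Mark3 differed by -0.0063 on the deposited values and Brms1 by -0.034 when all its probe sets were averaged. The NCoR/SMRT subunits Gps2 (-0.31 ± 0.063) and Tbl1xr1 (-0.19 ± 0.058) fell, as did the kinase Prkd2 (-0.20 ± 0.057), whose signal was below background. The mean of Gps2 in treated tumours, 4.51, lay at the background level of these arrays, 4.51. On the deposited values Kat7, Mideas, Mef2d, Sik2, Mark3 and Brms1 were no longer called, and with all probe sets of a gene averaged Mideas, Brms1, Tbl1xr1 and Prkd2 were not. No NuRD, CoREST or 14-3-3 gene was called; of those, Gatad2a differed by 0.20 and Rcor3 by 0.25, but on the deposited values by -0.027 and -0.0024. The macrophage markers fell in the same tumours, and their part in these changes was not tested.

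Of the partner genes, 5 had calls in both settings, and for 4 of them the effects differed. Sirt5 read 5.89, 5.94 and 6.04 (lowest, median and highest) in untreated samples and 4.66, 4.70 and 4.77 in treated ones, but 5.34, 5.66 and 5.79 in untreated tumours and 5.97, 6.17 and 6.58 in treated ones. Neither pair of groups overlapped, and the directions were opposite. The effect was higher in tumours by 1.60 ± 0.14 (SE; limma, adjusted p = 3.26e-10). Mef2d, which fell in cells and rose in tumours, differed by 1.0 ± 0.19 (SE; limma, adjusted p = 1.20e-04). Sik2 rose in both, by less in tumours (-0.96 ± 0.20, SE; limma, adjusted p = 4.49e-04), and Tbl1xr1 fell in both, by less in tumours (0.56 ± 0.11, SE; limma, adjusted p = 2.76e-04). In tumours the call held in 6 of 11 alternative settings for Sik2 and in 4 of 11 for Tbl1xr1, and both ended without the 3 arrays of lowest spread (limma, adjusted p = 0.0622 and 0.103). Brms1 rose in both, and its difference of effects, -0.14 ± 0.10 (SE), was not called (limma, adjusted p = 0.333).

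Under guadecitabine the partner with the smallest p was Chd3, a NuRD helicase, at -0.49 ± 0.14 (SE; limma, unadjusted p = 0.0047, adjusted p = 0.683). It was called in 1 of 20 alternative settings, that with all 6 groups in 1 fit (limma, adjusted p = 0.00976). Phf21a followed the same direction at -0.61 and the kinase Stk11 at -0.39, and neither was called. List medians in this comparison lay between -0.072 (CoREST) and 0.079 (MiDAC), beside 0.029 over all probe sets.

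**Figure D3:**
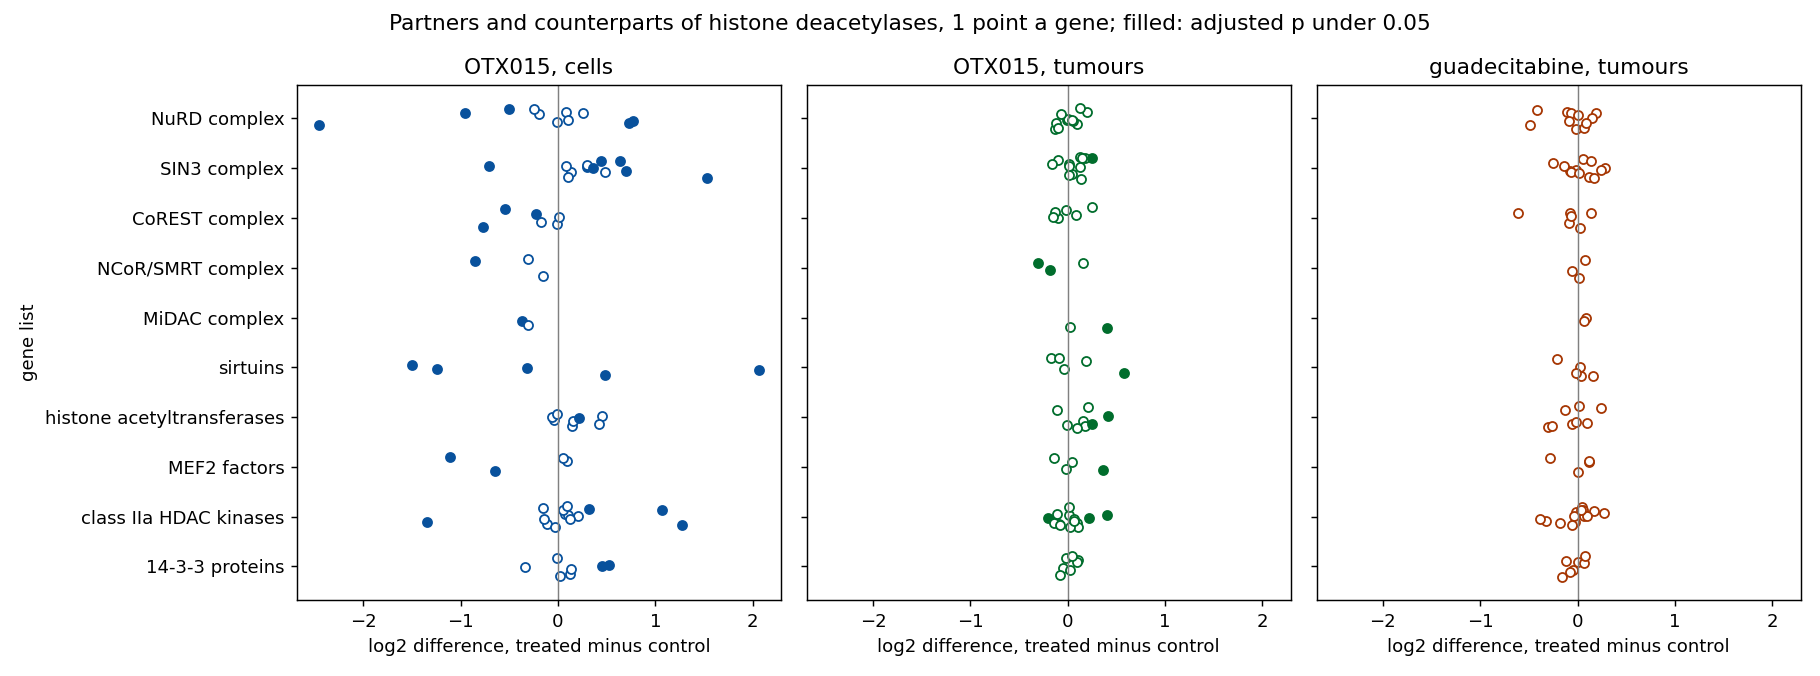
Log2 difference, treated minus untreated (horizontal axis), of each measured gene in the 10 partner lists (vertical axis) under OTX015 in cells, OTX015 in tumours and guadecitabine in tumours; each point is 1 gene by its brightest probe set, and filled points were called by limma. The widest spread is in cells, from Mta3 at -2.45 to Sirt1 at 2.06, and no point is called under guadecitabine.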

How the data were processed

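Each of the 40 samples was labelled from 500 ng of RNA and put on 1 Affymetrix 3′ expression array, per the labels' protocols. The authors deposited log2 values; RMA and the Transcriptome Analysis Console are named in the submitters' processing notes. Their versions, and the sets of arrays treated jointly, are not given in the sources used here. RMA subtracts background, equalizes the arrays of 1 run and summarizes each probe set robustly, which can shrink small differences. Arrays give no read depth, so their number limits precision.

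Gene names came from GEO's platform annotation (28898 name 1 gene, 551 several, 15692 are unnamed here), with symbols updated by gene number from RefSeq (GRCm38.p6). Groups follow the labels. Each comparison was fitted by lmFit and eBayes of limma 3.58.1, with defaults and two-sided, under R 4.3.3 on all 45141 probe sets of its own arrays, on deposited values for cells and guadecitabine and after quantile normalization elsewhere. Fits were checked on simulated data with changes in bright probe sets only, which does not cover dim members. All probe sets of the members could be named. Of each partner list, up to 4 called genes with the smallest adjusted p were named, or up to 2 with the smallest p where none was called. Members and lists were chosen with earlier results of these data known. Replicate numbers did not pair the samples: same-number correlations were -0.10 to 0.21 in cells (1 of 4 over 0.1), -0.52 to 0.46 in OTX015 tumours (4 of 10) and -0.58 to 0.066 in guadecitabine tumours (0 of 5). No 2 arrays held identical values. Alternatives were other scalings, a filter on dim probe sets, 1 value per gene, a stricter threshold, another variance model, 1 fit of all groups, array weights, a replicate block, and single or low-spread arrays left out.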

Additional observations from a re-analysis of the deposited data

Results flagged for a closer look

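Of 55 combinations of a probe set and a group of 4 to 10 arrays, 7 held a single array far from the others. Chance alone gives about 1 in 20, but the probe sets share their arrays, so the 7 are not independent. The gap to the nearest array is given as a share of the group's range. In OTX015-treated cells, replicate 1 was high for Hdac5 (7.13, next 6.53; share 0.861) and for Hdac6 (7.09, next 6.81; share 0.836). In OTX015-treated tumours, replicate 4 was high for the dim Hdac2 probe set 1439704_PM_at (3.39, next 3.15; 0.543), low for the brighter Hdac2 probe set (7.15, next 7.49; 0.469) and high for Hdac11 (5.14, next 4.78; 0.553). That array is also 1 of the 3 with the lowest spread of values in its experiment. Replicate 7 of the same group was high for the dim Hdac9 probe set 1434572_PM_at (3.41, next 2.83; 0.578). Among untreated tumours of the guadecitabine experiment, replicate 5 was low for the dim Hdac2 probe set (3.20, next 3.60; 0.721).

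The OTX015 effect in tumours minus that in cells, tested itself, was called (limma) for Hdac1 (-0.37), Hdac5 (-0.55), Hdac8 (0.85) and Hdac11 (0.84). Hdac8 was below background in tumours, and the mean of Hdac11 in untreated tumours was close to it. Among partner genes with calls in both settings the difference was called for Sirt5 (1.60), Mef2d (1.0), Sik2 (-0.96) and Tbl1xr1 (0.56).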

How the results depend on the processing

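The count of called probe sets in OTX015-treated cells (4) ranged from 3 to 6 over the alternatives and from 4 to 5 with 1 array left out. In OTX015 tumours (1) it stayed at 1 except on the deposited values, where it was 7, and guadecitabine gave 0 throughout, 0 to 0 with 1 array left out. The 4 calls of the difference between tumours and cells became 2 with median centring and 7 on deposited values. The difference between the drugs gave 3 on deposited values instead of 0. The 5 calls between untreated tumours and cells became 3 on deposited values, without dim probe sets and at an adjusted p under 0.01. Among results called in one setting or the other, directions turned for Hdac11 in OTX015 tumours on deposited values (-0.20), Mark3 there (-0.0063), Brms1 with the mean of its probe sets (-0.034) and Hdac6 between untreated tumours and cells with median centring (-0.016); apart from the shift in the deposited values, the cause was not tested. Signs also changed for values called in neither setting: 15 in OTX015 tumours, 29 under guadecitabine, 5 between untreated tumours and cells, 3 in cells and 1 for the difference between tumours and cells. The replicate numbers are only names here; with the replicate block the counts were 5, 1 and 0, and Hdac5 in cells was then called (limma, adjusted p = 0.0443). Over 17 alternatives in cells, Hdac2 (brighter probe set) was called in 6 and Hdac5 in 5. Without the 3 arrays of lowest spread, a choice added after seeing the data, Hdac6 in OTX015 tumours was 0.35 (limma, adjusted p = 0.00873) and the counts were 1 and, for the difference, 5. Per-gene alternatives for the partners and for the contrasts across experiments were also added then. A stricter rule (an SD over 3 MADs below the median of the tumour arrays) left out 1 array, and none in the guadecitabine experiment, where it was not run. Signals near background limit what Hdac8, Hdac9 and Hdac11 can show.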
